A study of Mus musculus with 24 samples.

Results

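Aminoacyl-tRNA synthetases join each amino acid to its transfer RNA, the step that supplies ribosomes with charged tRNA. The 36 genes that encode them and were measured here are described below, of 32719 genes in the count tables. They were found by symbol among the 37 rows that carry a synthetase name. Lars2 was left out because its reads resemble ribosomal RNA, and all 36 others had a mean level of at least 1 CPM, the reads of a gene scaled to a common library size. Membership was set by gene names and this floor, but the set itself was chosen with earlier results of these data known. Of the 36, 20 encode cytosolic enzymes or their subunits and 16 encode mitochondrial enzymes. All 36 also passed the filter on low counts that was applied before testing.

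Most animal cells keep separate synthetase genes for cytosolic and mitochondrial translation, both in the nuclear genome, with the mitochondrial enzymes imported after synthesis. Gars (glycine) and Kars (lysine) serve both compartments from 1 gene each and are grouped here with the cytosolic members. Several cytosolic enzymes sit in a multisynthetase complex held together by scaffold proteins. The transcription factor ATF4, which is made when amino acids run short or when mTORC1 is active, is known to bind near many cytosolic synthetase genes. Insulin and IGF-1 both activate mTORC1 through their receptors.

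The study measured RNA in primary cortical astrocytes cultured from newborn mouse pups. The sample titles of all groups carry the label DIV14 (days in vitro). All the cells were IR floxed, carrying insulin receptor (Insr) alleles that Cre recombinase can delete. IR floxed control cells (IRflox) had been infected with adenovirus encoding GFP alone, and IRKO cells with adenovirus encoding Cre:GFP, so genotype and virus cannot be told apart. After overnight serum starvation each genotype received vehicle or 1 of the ligands, insulin or IGF-1, at a dose of 100 nM for 6 h, with 4 libraries in each of the 6 groups. Whether the 4 libraries of a group stem from separate cultures is not stated in the labels. The p-values therefore reflect the spread among these libraries alone, and part or all of that spread may be technical.

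The counts over all genes summed to 15429688 to 19010986 per library. Of all reads, 14.485 to 23.183% were not among those recorded as a unique overlap with genes. In every library the summed counts exceeded the reads recorded as a unique overlap, so a read may have been counted for more than 1 gene. Insr had 61.5 ± 3.6 CPM in IRflox vehicle cells and 40.4 ± 2.47 CPM in IRKO vehicle cells (SD, n = 4). The difference was -0.61 ± 0.05 on the log2 scale (adjusted p = 3e-10), and a count over the whole gene does not give the share of cells that lost the deleted part. The 10 astrocyte markers summed to 4500 to 4782 CPM in IRflox vehicle libraries, 4467 to 4745 CPM with insulin and 4128 to 4265 CPM with IGF-1, and to 4725 to 4980, 4678 to 4826 and 4451 to 4490 CPM in IRKO. The IGF-1 sums lay below the vehicle sums in both genotypes, and with IGF-1 6 of the 10 markers fell and 2 rose in IRflox, 5 fell and 2 rose in IRKO. Markers of other cells were present, and the sums of some lists moved too. No marker list had a gene at 0 in all libraries. The 11 fibroblast and mural markers summed to 376.3 to 401.4 CPM in IRflox vehicle libraries and 345.1 to 398.9 CPM in IRKO vehicle libraries. The 7 endothelial markers summed to 7.459 to 9.975 CPM and 7.087 to 9.183 CPM. For both lists the sums with either ligand overlapped the vehicle sums in each genotype. The 12 microglial markers summed to 1012 to 1068 CPM in IRflox vehicle libraries, 858.4 to 939.7 CPM with insulin and 909.3 to 950.7 CPM with IGF-1. In IRKO libraries their sums were 1231 to 1275, 1051 to 1080 and 1029 to 1103 CPM. In the 4 ligand comparisons 5 to 10 of them fell and 0 rose. The 10 oligodendrocyte lineage markers summed to 306 to 331.1 CPM in IRflox vehicle libraries, 376.9 to 418.2 CPM with insulin and 419.3 to 448 CPM with IGF-1. In IRKO libraries these sums were 331.9 to 354, 434 to 440.5 and 460.8 to 492.4 CPM. The 8 of these markers that were tested split into 4 higher and 4 lower in each ligand comparison, with 2 to 3 called up and 1 to 3 called down. The 10 neuron markers summed to 150.1 to 154.9 CPM in IRflox vehicle libraries, 173 to 182.6 CPM with insulin and 169.7 to 181.3 CPM with IGF-1, and to 128.7 to 140.5, 146.3 to 152.2 and 148.2 to 157.7 CPM in IRKO. Of the 7 tested, 2 rose and 1 to 3 fell in the ligand comparisons, and their medians were below 0. These counts stand beside 24.3 to 26.9% of all genes tested that rose and 21.4 to 25.1% that fell. Whether the marker lists differed from all genes was not tested. The part of these cells in the results below was not tested.

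The regions around the transcription start are shown for 6 synthetase genes whose RNA is described below: Iars, Gars, Tars and Yars, which hold a match to the C/EBP-ATF response element, the type of site that ATF4 binds, and Farsb and Ears2, which have no such match and showed the largest rises of their compartments under insulin in IRflox cells. RefSeq windows on GRCm38.p6 run from 250 bases before the start to 50 bases from the start on, 300 bases in all, and were found for 26 of the 36 members. Those without a window include Nars, Wars, Vars, Lars, Rars, Hars, Cars, Hars2 and Pars2. Each line gives the strand of the gene 5′ to 3′. Capitals mark matches on either strand to the response element (TGATGNAAN), the E-box (CACGTG) or the NRF1 motif (GCGCA, any base, then GCGC), and matches that touch run together.
Iars, chr13:49681880-49682179, plus strand: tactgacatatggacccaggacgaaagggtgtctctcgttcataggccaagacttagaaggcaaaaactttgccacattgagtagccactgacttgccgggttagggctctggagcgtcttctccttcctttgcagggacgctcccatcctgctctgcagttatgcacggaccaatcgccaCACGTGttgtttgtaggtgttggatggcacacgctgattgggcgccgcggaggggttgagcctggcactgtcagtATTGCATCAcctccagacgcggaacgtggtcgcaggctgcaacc
Gars, chr6:55037751-55038050, plus strand: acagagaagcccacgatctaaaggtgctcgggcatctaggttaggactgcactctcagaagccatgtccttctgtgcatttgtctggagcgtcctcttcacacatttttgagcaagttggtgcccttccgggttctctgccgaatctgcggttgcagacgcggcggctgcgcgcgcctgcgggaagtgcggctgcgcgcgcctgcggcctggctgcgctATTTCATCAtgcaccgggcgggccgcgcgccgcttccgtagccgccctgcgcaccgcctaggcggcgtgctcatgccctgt
Tars, chr15:11399609-11399908, minus strand: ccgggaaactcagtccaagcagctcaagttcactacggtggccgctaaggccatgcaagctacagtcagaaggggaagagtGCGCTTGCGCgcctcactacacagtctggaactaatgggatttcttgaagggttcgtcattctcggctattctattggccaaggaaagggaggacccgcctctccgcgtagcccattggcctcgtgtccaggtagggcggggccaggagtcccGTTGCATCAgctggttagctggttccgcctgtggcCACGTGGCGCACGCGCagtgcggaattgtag
Yars, chr4:129189653-129189952, plus strand: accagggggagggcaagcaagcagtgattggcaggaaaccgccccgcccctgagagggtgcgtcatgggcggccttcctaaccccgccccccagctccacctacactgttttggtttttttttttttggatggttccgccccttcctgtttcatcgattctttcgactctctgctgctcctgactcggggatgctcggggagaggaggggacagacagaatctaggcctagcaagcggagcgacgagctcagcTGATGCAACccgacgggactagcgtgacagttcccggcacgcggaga
Farsb, chr1:78488848-78489147, minus strand: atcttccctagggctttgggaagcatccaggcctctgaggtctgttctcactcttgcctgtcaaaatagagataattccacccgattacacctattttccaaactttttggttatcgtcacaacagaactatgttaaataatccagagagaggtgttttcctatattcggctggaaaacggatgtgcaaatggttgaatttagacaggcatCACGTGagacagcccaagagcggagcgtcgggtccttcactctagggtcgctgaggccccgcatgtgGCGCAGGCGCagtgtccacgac
Ears2, chr7:122067037-122067336, minus strand: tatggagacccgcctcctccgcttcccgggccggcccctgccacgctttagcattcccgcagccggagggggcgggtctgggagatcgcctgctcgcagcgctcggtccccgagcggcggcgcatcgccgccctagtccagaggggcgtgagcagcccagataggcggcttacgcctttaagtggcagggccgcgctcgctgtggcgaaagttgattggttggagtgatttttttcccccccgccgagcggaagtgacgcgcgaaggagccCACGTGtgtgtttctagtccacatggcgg
In Iars (isoleucine) the response element match began at base 7 after the start and an E-box began 69 bases before it. In Gars the match lay 31 bases before the start. In Tars (threonine) it lay 16 bases before the start, with an E-box at base 20 and NRF1 matches at base 26 and 169 bases before the start. Yars (tyrosine) had its match at base 4. Farsb (a subunit of the phenylalanine enzyme) had an E-box 39 bases before the start and an NRF1 match at base 29, and Ears2 (mitochondrial glutamate) had an E-box at base 22.

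The response element was found in 5 of the 13 cytosolic members with a window, the fifth being Aars (alanine) with 2 matches, and in 0 of the 13 mitochondrial members with a window. Among all 27025 genes in the promoter table, 4.5% held it. The E-box was found in 4 of 13 cytosolic members (Aars, Iars, Tars and Farsb) and in 1 of 13 mitochondrial members (Ears2), against 8.09% of all genes. The NRF1 motif was found in 3 of 13 cytosolic members (Kars, Tars and Farsb) and in 2 of 13 mitochondrial members (Iars2 and Mars2), against 5.19% of all genes. The palindromic cyclic AMP response element (TGACGTCA) was found in 0 of the 26, against 2.03% of all genes. A match describes letters in the window and not a bound site.

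Cytosolic synthetase genes were expressed at higher levels than mitochondrial ones. Per kilobase of annotated exon, the mean level over the 24 libraries had a median of 23.9 CPM per kb for cytosolic members and 2.92 CPM per kb for mitochondrial members. The cytosolic levels ran from 8.32 CPM per kb for Cars (cysteine) to 39.8 CPM per kb for Wars (tryptophan). The mitochondrial levels ran from 1.25 CPM per kb for Nars2 (asparagine) to 12.5 CPM per kb for Iars2 (isoleucine). The 2 ranges overlapped only through Iars2, Hars2 and Rars2, which exceeded Cars. In all 17 pairings of a cytosolic gene with the mitochondrial gene for the same amino acid, the cytosolic gene was higher per kilobase, by 1.73-fold for Yars over Yars2, a median of 5.79-fold, and up to 31.1-fold for Nars over Nars2. Iars2 shares 22.9% of its exon length with Rab3gap2 on the opposite strand, and without strand information its level is uncertain. Of the others, Aars shares 14.3% with Exosc6 on the same strand. On the opposite strand Farsb shares 9.5% with Sgpp2, Fars2 8.7% with Nrn1, and Hars 8% with Hars2, which starts head to head with it on chromosome 18.

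**Figure D1:**
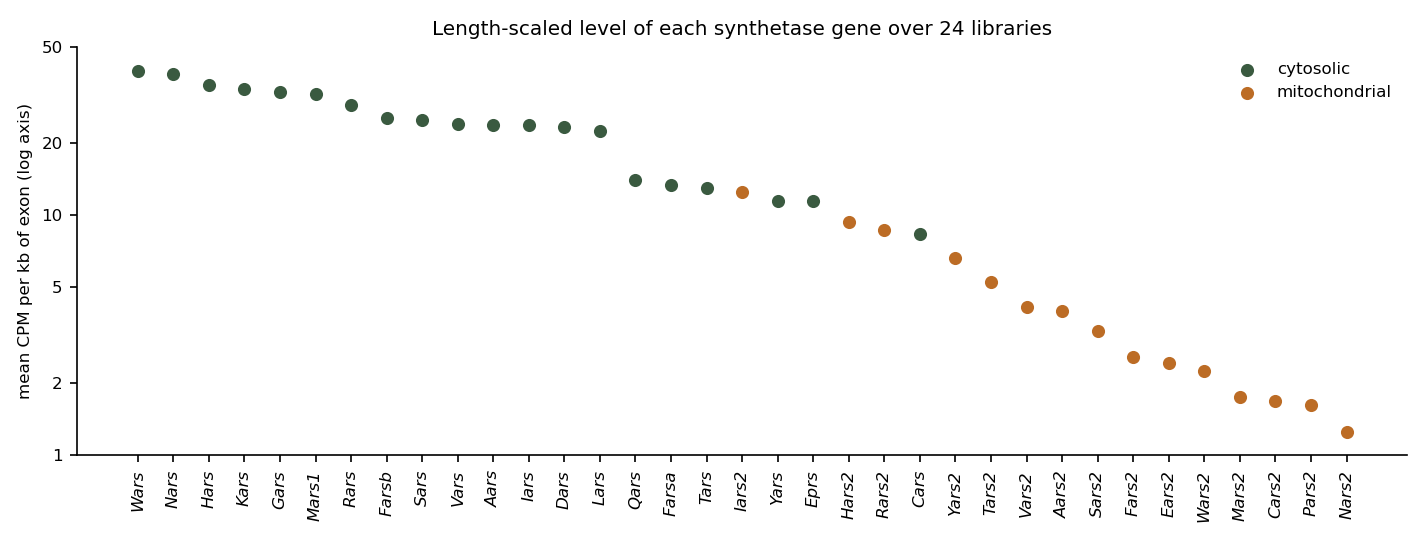
Mean level of 35 of the 36 synthetase genes over 24 libraries, in CPM per kb of annotated exon on a log axis, cytosolic members in green and mitochondrial members in orange. Cytosolic genes fill the upper end from Wars at 39.8 CPM per kb, and mitochondrial genes fill the lower end down to Nars2 at 1.25 CPM per kb.

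Insulin raised nearly the whole cytosolic group in IRflox cells. With p-values from edgeR's quasi-likelihood fit, adjusted by Benjamini-Hochberg and called at 0.05, 19 of 20 cytosolic members rose and 0 fell, where 24.3% of the 15599 genes tested rose and 21.4% fell. The median log2 fold change of the cytosolic members was 0.36, against 0.00 for all genes tested, and the increases that passed ran from 0.10 to 0.76. Their summed level went from 1991 ± 57.7 CPM with vehicle to 2473 ± 28.6 CPM with insulin (SD, n = 4), which is 24.2% above vehicle, and the vehicle and insulin libraries did not overlap. In bulk RNA a change in the RNA of each cell and a change in the number of cells of a type cannot be told apart. Of the 20, 17 had all 4 insulin libraries above all 4 vehicle libraries, against 20.1% of all genes tested.

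Mitochondrial members were divided. Under insulin in IRflox cells 6 of 16 rose and 1 fell, with a median of 0.15 on the log2 scale, and 6 of 16 had all insulin libraries above all vehicle libraries (20.1% of all genes did). Their summed level went from 359.6 ± 7.59 CPM to 391.0 ± 5.05 CPM, 8.75% above vehicle. Iars2, whose level is uncertain, was the largest part of these sums, at 115.6 CPM with vehicle and 109.7 CPM with insulin. The 6 that rose were Ears2, Yars2, Mars2, Nars2, Rars2 and Cars2, by 0.24 to 0.79 on the log2 scale. Pars2 (proline) fell, and the remaining 9 lay between -0.20 and 0.22 without passing the test.

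IGF-1 in IRflox cells gave 19 of 20 cytosolic members up and 0 down, with a median log2 change of 0.38, where 26.4% of all genes rose and 24.4% fell. Of the 16 mitochondrial members 7 rose and 4 fell, with a median of 0.14. In IRKO cells insulin raised 20 of 20 cytosolic members, with a median of 0.30, and 9 of 16 mitochondrial members, with 1 down and a median of 0.23, where 24.7% of all genes rose and 21.7% fell. IGF-1 in IRKO cells raised 20 of 20 cytosolic members, with a median of 0.35, and 9 of 16 mitochondrial members, with 1 down and a median of 0.24, where 26.9% of all genes rose and 25.1% fell. All ligand libraries lay above all vehicle libraries for 18 cytosolic and 7 mitochondrial members with IGF-1 in IRflox, against 22.6% of all genes. With insulin in IRKO this held for 20 and 7 members, against 20.5%, and with IGF-1 in IRKO for 19 and 9, against 23.6%. The median over all genes tested was within 0.01 of 0 in each of these comparisons. The summed cytosolic level stood 27.2% above vehicle with IGF-1 in IRflox cells, 23.5% with insulin in IRKO cells and 27.1% with IGF-1 in IRKO cells. The mitochondrial sums stood 10.2, 11.96 and 15.5% above vehicle in the same order, and Iars2 was the largest part of each. Insulin and IGF-1 comparisons within a genotype share their vehicle libraries and are not independent of each other.

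**Figure D2:**
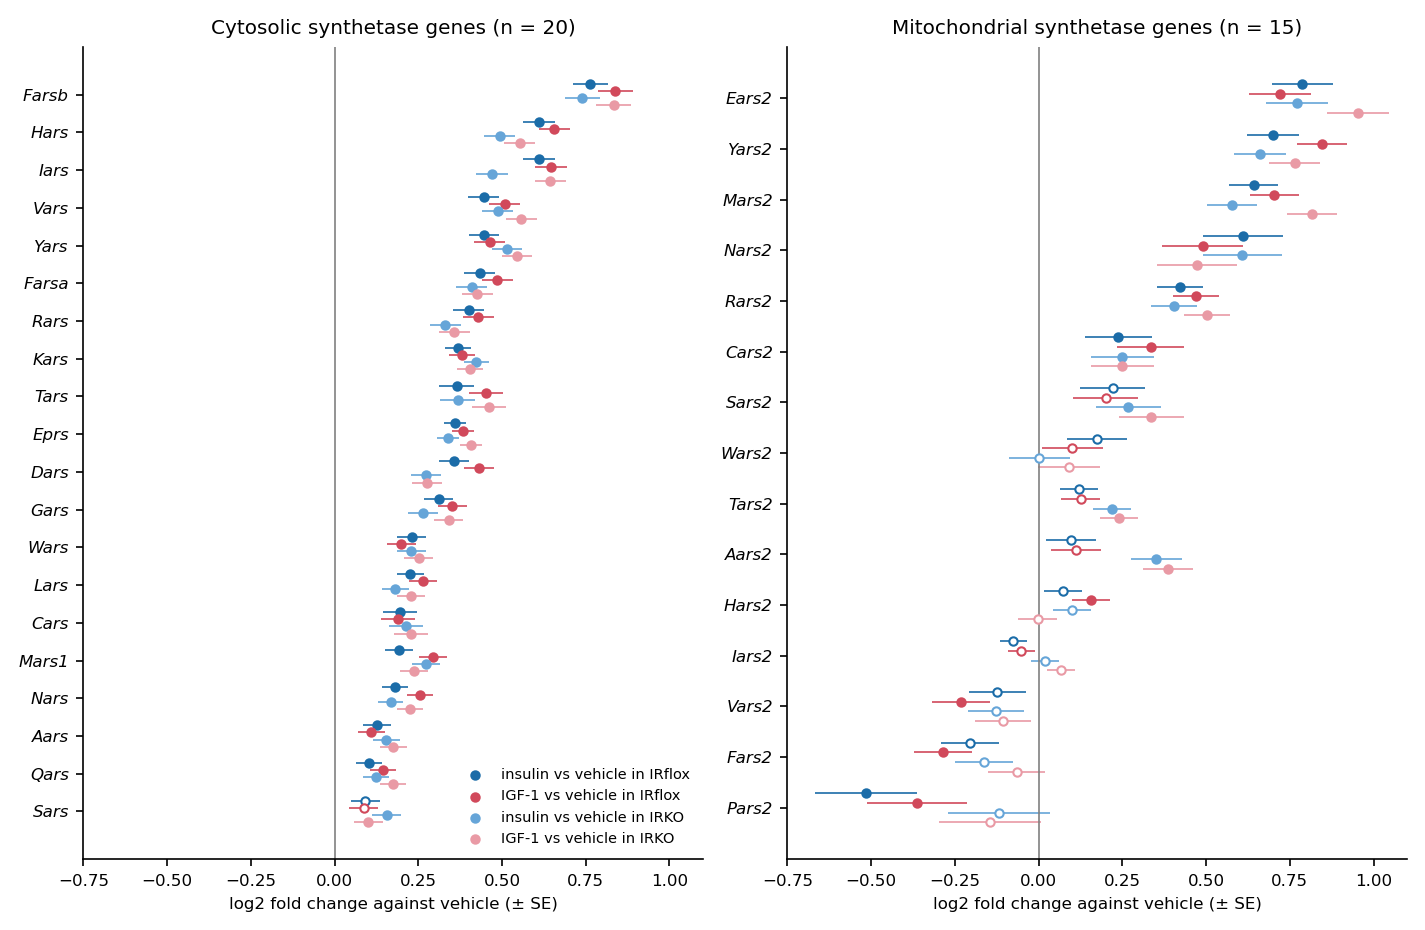
Log2 fold change against vehicle for 35 of the 36 synthetase genes in the 4 ligand comparisons, with SE bars, filled points where the adjusted p was under 0.05 and open points elsewhere, cytosolic members on the left and mitochondrial members on the right. The cytosolic points all lie to the right of 0, from 0.09 for Sars to 0.84 for Farsb, while the mitochondrial points spread from -0.52 for Pars2 to 0.95 for Ears2.

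Among cytosolic members Farsb, which encodes the beta subunit of phenylalanyl-tRNA synthetase, rose most. In IRflox cells it stood at 42.2, 44.8, 47.5 and 47.1 CPM in the vehicle libraries, 75.8, 77.1, 77.2 and 78.5 CPM with insulin and 79.1, 78.2, 81.1 and 86.8 CPM with IGF-1. In IRKO cells the values were 46.4, 39.7, 47.4 and 42.8 CPM with vehicle, 76.9, 66.5, 73.5 and 77.01 CPM with insulin and 78.1, 75.97, 81.1 and 78.8 CPM with IGF-1. Every ligand library lay above every vehicle library in both genotypes. The log2 change was 0.76 ± 0.05 (SE, adjusted p = 1.15e-15) for insulin in IRflox, 0.84 ± 0.05 (SE, adjusted p = 3.58e-17) for IGF-1 in IRflox, 0.74 ± 0.05 (SE, adjusted p = 2.95e-15) for insulin in IRKO and 0.83 ± 0.05 (SE, adjusted p = 4.71e-17) for IGF-1 in IRKO. Farsa, the alpha subunit of the same enzyme, changed by less: 0.43, 0.49, 0.41 and 0.43 in the same order, each with an SE of 0.05.

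Hars, which charges histidine, showed the next largest rise under insulin in IRflox cells, level with that of Iars at 0.61. Its IRflox libraries gave 65.7, 61.9, 64.1 and 61.8 CPM with vehicle, 98.8, 101, 90.8 and 96.2 CPM with insulin and 94.6, 97.1, 101 and 108 CPM with IGF-1. Its IRKO libraries gave 62.1, 62.2, 68.8 and 64.5 CPM with vehicle, 97.4, 90.4, 89.2 and 85.4 CPM with insulin and 94.6, 96.9, 92.8 and 93.7 CPM with IGF-1. Ligand and vehicle libraries did not overlap. The log2 changes were 0.61 ± 0.05 (SE, adjusted p = 2.94e-14) for insulin and 0.66 ± 0.05 (SE, adjusted p = 1.97e-15) for IGF-1 in IRflox, and 0.49 ± 0.05 (SE, adjusted p = 1.06e-11) and 0.55 ± 0.05 (SE, adjusted p = 3.04e-13) in IRKO. The neighbouring gene Hars2, its mitochondrial counterpart, changed by 0.07, 0.16, 0.10 and 0.00 in the 4 comparisons and passed the test only in the second, IGF-1 in IRflox.

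Iars belongs to the multisynthetase complex and charges isoleucine. Its levels were 85.9, 98.6, 93.1 and 94.3 CPM in IRflox vehicle libraries, 142, 129.7, 153 and 144 CPM with insulin and 145, 145, 140.4 and 151 CPM with IGF-1. In IRKO cells they were 91.9, 99.9, 92.4 and 86.2 CPM with vehicle, 129, 126, 126 and 132 CPM with insulin and 140.1, 150.2, 139.9 and 149 CPM with IGF-1. Both ligands lay above vehicle in both genotypes without overlap, and in IRKO cells the insulin libraries all lay below the IGF-1 libraries. The log2 changes against vehicle were 0.61 ± 0.05 (SE, adjusted p = 2.79e-14) for insulin and 0.65 ± 0.05 (SE, adjusted p = 2.97e-15) for IGF-1 in IRflox, and 0.47 ± 0.05 (SE, adjusted p = 3.72e-11) and 0.64 ± 0.05 (SE, adjusted p = 3.08e-15) in IRKO. Vars, the valine enzyme, gave 117, 102, 112 and 101 CPM with vehicle, 156, 149, 133 and 151 CPM with insulin and 149.7, 153, 156 and 156 CPM with IGF-1 in IRflox cells. In IRKO cells Vars gave 97.1, 108, 107 and 98.97 CPM with vehicle, 146, 149, 145 and 137 CPM with insulin and 152, 149.5, 153 and 152 CPM with IGF-1. Again no ligand library reached down to the vehicle libraries, and the log2 changes of Vars were 0.45, 0.51, 0.49 and 0.56, each with an SE of 0.05.

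The genes that serve both compartments rose by a moderate amount. Gars stood at 90.9, 83.8, 96.5 and 88.1 CPM in IRflox vehicle libraries, 111, 111, 115 and 109 CPM with insulin and 111, 115, 117 and 116 CPM with IGF-1. In IRKO cells it stood at 81.997, 84.7, 83.7 and 86.9 CPM with vehicle, 106, 93.9, 104 and 101 CPM with insulin and 99.6, 110.3, 109.6 and 108 CPM with IGF-1. Its log2 changes were 0.31, 0.35, 0.26 and 0.34 and its ligand libraries lay above its vehicle libraries in each comparison. Kars stood at 124, 123, 128 and 129 CPM with vehicle, 159, 163, 160.4 and 169 CPM with insulin and 157, 167, 164 and 168 CPM with IGF-1 in IRflox cells. In IRKO cells Kars stood at 117, 127, 119 and 123 CPM with vehicle, 165, 165, 169 and 153 CPM with insulin and 164, 159, 155 and 164 CPM with IGF-1. Its log2 changes were 0.37, 0.38, 0.42 and 0.40, all past the test as for Gars, with no overlap between ligand and vehicle libraries.

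The other cytosolic members can be given by range. Yars, Rars (arginine), Tars, Eprs (glutamate and proline on 1 chain) and Dars (aspartate) changed by 0.27 to 0.54 on the log2 scale over the 4 comparisons, and all these passed the test. Yars changed by 0.45, 0.46, 0.52 and 0.54, Rars by 0.40, 0.43, 0.33 and 0.36, Tars by 0.36, 0.45, 0.37 and 0.46, Eprs by 0.36, 0.38, 0.34 and 0.41 and Dars by 0.36, 0.43, 0.27 and 0.28. Wars, Lars (leucine), Cars, Mars1 (methionine) and Nars changed by 0.17 to 0.30 and also passed in each comparison. The smallest changes were those of Aars, Qars (glutamine) and Sars (serine), at 0.09 to 0.18. Aars was the most abundant member by CPM, with a mean of 220.3 CPM, and part of its exon length is shared with Exosc6. Sars changed by 0.09, 0.09, 0.16 and 0.10 and passed the test in IRKO cells only, its IGF-1 call there being lost under other settings as given below. The difference between genotypes in its response was not called.

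Members inside and outside the multisynthetase complex had medians close to each other. Under insulin in IRflox cells 8 of 8 complex members rose with a median of 0.36, and 11 of 12 others rose with a median of 0.34. The 10 class I members (Eprs counted here) had a median of 0.30 and the 10 class II members a median of 0.36. The 13 cytosolic members commonly listed as ATF4 targets had a median of 0.23, with 12 up, and the 7 others had a median of 0.40, with 7 up. Under IGF-1 in IRKO cells these medians were 0.25 and 0.40. These are descriptions of lists chosen with results known, and the differences between them were not tested.

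Among mitochondrial members Ears2, which charges glutamate, had the largest increase in each ligand comparison except IGF-1 in IRflox, where Yars2 rose more. In IRflox cells its levels were 9.24, 8.44, 8.70 and 8.39 CPM with vehicle, 15.6, 15.6, 13.8 and 15.04 CPM with insulin and 13.5, 13.4, 13.6 and 16.8 CPM with IGF-1. In IRKO cells they were 8.48, 7.999, 7.89 and 7.30 CPM with vehicle, 11.6, 13.3, 14.3 and 14.9 CPM with insulin and 16.3, 15.02, 14.8 and 15.2 CPM with IGF-1. Ligand libraries lay above vehicle libraries in both genotypes. The log2 changes were 0.79 ± 0.09 (SE, adjusted p = 2.1e-09) for insulin and 0.72 ± 0.09 (SE, adjusted p = 1.34e-08) for IGF-1 in IRflox, and 0.77 ± 0.09 (SE, adjusted p = 4.64e-09) and 0.95 ± 0.09 (SE, adjusted p = 1.27e-11) in IRKO.

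Yars2 (tyrosine) and Mars2 (methionine) also rose under both ligands. Yars2 gave 15.03, 13.2, 14.8 and 15.98 CPM with vehicle, 23.1, 25.3, 23.8 and 23.6 CPM with insulin and 25.9, 25.3, 25.5 and 29.5 CPM with IGF-1 in IRflox cells. In IRKO cells Yars2 gave 15.5, 12.1, 14.01 and 14.8 CPM with vehicle, 23.2, 21.9, 23.6 and 20.5 CPM with insulin and 24.3, 23.2, 25.03 and 23.2 CPM with IGF-1. Its groups did not overlap with vehicle, and its log2 changes were 0.70, 0.85, 0.66 and 0.76, each with an SE of 0.08. Mars2 gave 16.2, 14.1, 13.9 and 14.3 CPM with vehicle, 22.6, 21.97, 24.1 and 22.7 CPM with insulin and 22.4, 23.98, 26.03 and 22.7 CPM with IGF-1 in IRflox cells. In IRKO cells Mars2 gave 13.03, 14.1, 12.8 and 14.1 CPM with vehicle, 21.7, 18.2, 19.7 and 21.1 CPM with insulin and 23.5, 22.6, 24.1 and 25.02 CPM with IGF-1. Its ligand libraries all exceeded its vehicle libraries, with log2 changes of 0.64, 0.70, 0.58 and 0.82 and an SE of 0.07 each.

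Nars2 (asparagine) rose from the lowest level per kilobase in the set. Its IRflox libraries gave 7.57, 5.24, 6.42 and 6.96 CPM with vehicle, 10.2, 10.8, 10.1 and 9.09 CPM with insulin and 8.10, 10.1, 9.99 and 8.63 CPM with IGF-1. Its IRKO libraries gave 6.73, 6.03, 8.26 and 5.97 CPM with vehicle, 10.5, 8.74, 11.9 and 10.1 CPM with insulin and 8.78, 8.85, 9.49 and 10.4 CPM with IGF-1. All ligand libraries lay above all vehicle libraries, the gaps being narrow in IRKO cells, and the log2 changes were 0.61, 0.49, 0.61 and 0.47, each with an SE of 0.12. Rars2 (arginine) changed by 0.42, 0.47, 0.40 and 0.50 and Cars2 (cysteine) by 0.24, 0.33, 0.25 and 0.25, and both passed in each comparison. The insulin calls of Cars2 and its IGF-1 call in IRKO depended on single libraries or settings given below.

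Pars2, the mitochondrial proline enzyme, moved the other way in IRflox cells. It gave 6.43, 7.54, 5.20 and 5.93 CPM with vehicle, 5.21, 3.54, 3.52 and 5.16 CPM with insulin and 5.48, 4.82, 4.66 and 4.49 CPM with IGF-1, and the vehicle libraries overlapped those of both ligands. In IRKO cells it gave 5.69, 4.21, 5.22 and 5.59 CPM with vehicle, 5.63, 4.03, 5.35 and 3.99 CPM with insulin and 5.05, 4.18, 4.72 and 4.75 CPM with IGF-1, with overlap throughout. The log2 change was -0.52 ± 0.15 (SE, adjusted p = 0.00478) for insulin and -0.36 ± 0.15 (SE, adjusted p = 0.0395) for IGF-1 in IRflox, and -0.12 ± 0.15 (SE, adjusted p = 0.554) and -0.14 ± 0.15 (SE, adjusted p = 0.45) in IRKO. Pars2 is the least abundant member at a mean of 5.02 CPM, and the difference of its insulin response between genotypes was not called (adjusted p = 0.922).

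**Figure D3:**
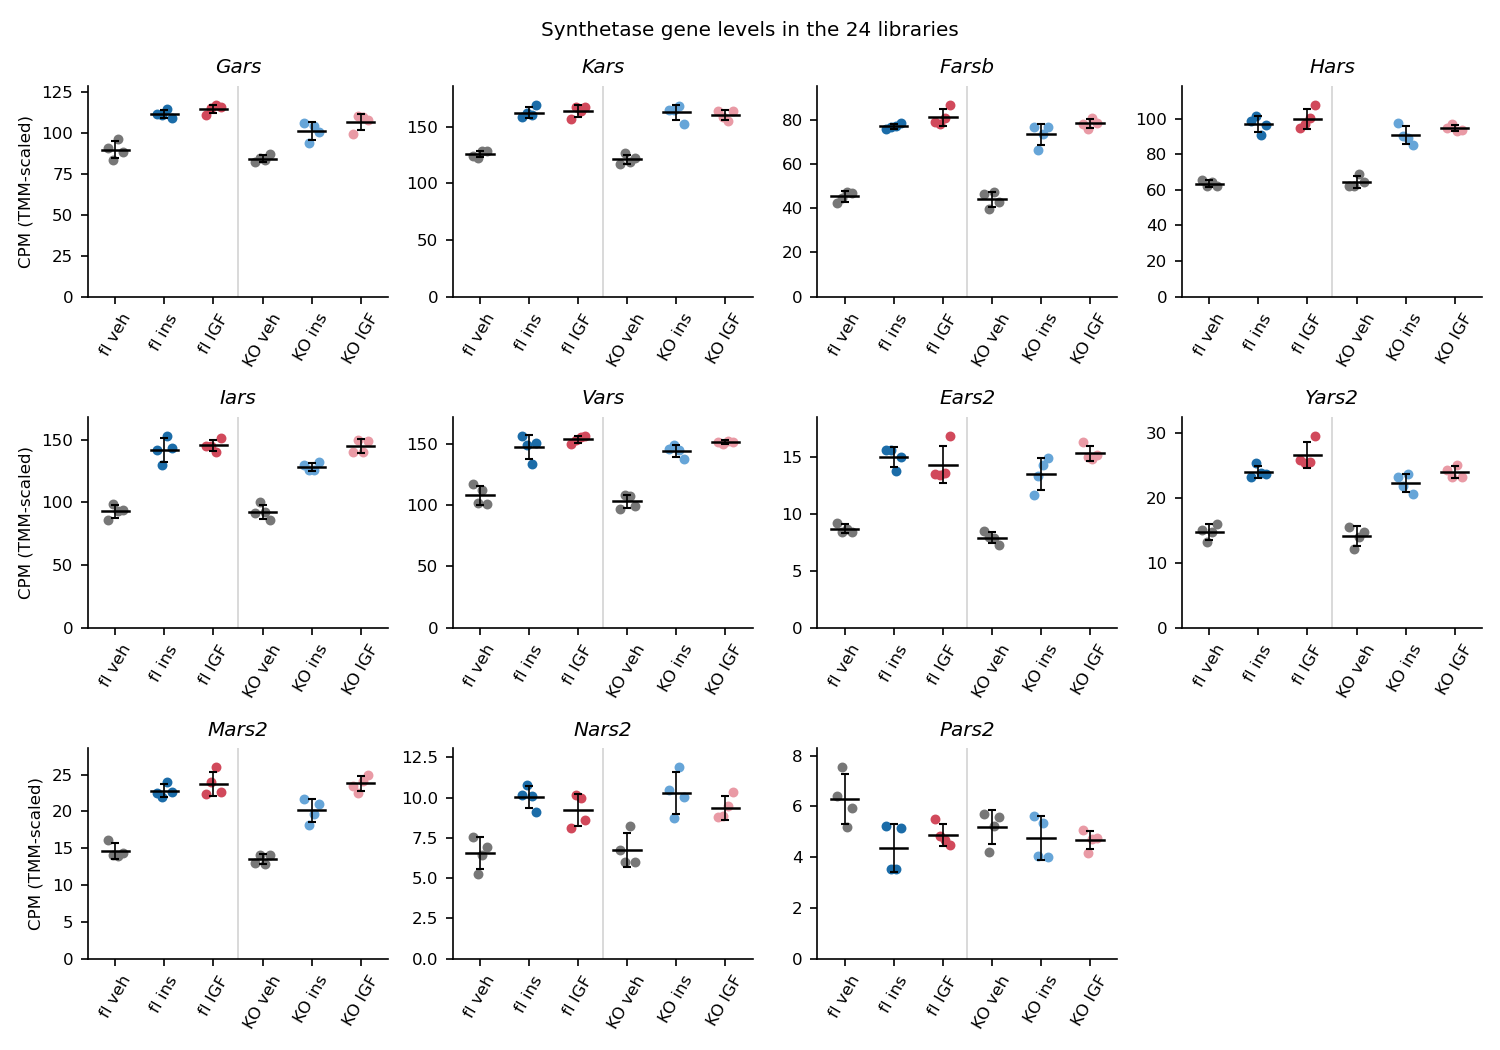
CPM (TMM-scaled) of 11 synthetase genes in each of the 24 libraries, in IRflox (fl) and IRKO (KO) cells with vehicle (veh), insulin (ins) or IGF-1 (IGF), with points for libraries, a line for the mean of 4 and bars for the SD. Within each genotype, vehicle points lie below ligand points in every panel except Pars2, whose IRflox vehicle points reach highest, at 7.54 CPM.

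Other mitochondrial members changed little or in 1 direction only in some groups. Vars2 (valine) and Fars2 (phenylalanine) fell with IGF-1 in IRflox cells, by 0.23 and 0.29 on the log2 scale, and passed in no other comparison with vehicle. In some other fits given below, Fars2 also passed as lower with insulin. Tars2 (threonine), Aars2 (alanine) and Sars2 (serine) rose in IRKO cells and did not pass in IRflox cells. In IRflox cells Tars2 and Sars2 did pass in some fits with 1 library left out, as given below. Aars2 changed by 0.10, 0.11, 0.35 and 0.39, Tars2 by 0.12, 0.13, 0.22 and 0.24 and Sars2 by 0.22, 0.20, 0.27 and 0.34. The difference between genotypes itself was not called for any of these genes. For Aars2 that difference was 0.26 for insulin (unadjusted p = 0.0215, adjusted p = 0.884) and 0.27 for IGF-1 (unadjusted p = 0.0136, adjusted p = 0.871). Iars2 and Wars2 (tryptophan) passed in none of the 4 comparisons, at -0.08, -0.05, 0.02 and 0.07 and 0.17, 0.10, 0.00 and 0.09. For insulin in IRflox cells each passed in at least 1 other fit given below.

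Some of these calls lay near the threshold and were lost when 1 library was left out. Cars2 under insulin in IRflox cells missed the threshold without any 1 of the 8 libraries compared (adjusted p = 0.0525 to 0.154), and so did Qars (adjusted p = 0.0559 to 0.129). Sars under IGF-1 in IRKO cells missed it without any of the IRKO vehicle replicates or IGF-1 replicates 1, 2 or 4 (adjusted p = 0.0544 to 0.157). Aars lost its insulin call in IRflox without insulin replicate 1 or 4 or vehicle replicate 2 (adjusted p = 0.061 to 0.0683). Its IGF-1 call went without IGF-1 replicate 2, 3 or 4 or vehicle replicate 1, 2 or 4 (adjusted p = 0.0549 to 0.11). Pars2 lost its IGF-1 call in IRflox without IGF-1 replicate 2, 3 or 4 or vehicle replicate 1 or 2 (adjusted p = 0.0659 to 0.168). Vars2 lost that call without IGF-1 replicate 3 or 4 or vehicle replicate 2 (adjusted p = 0.0634 to 0.0758). Hars2 lost it without IGF-1 replicate 4 or vehicle replicate 3 (adjusted p = 0.13 and 0.0708). In IRKO cells Cars2 lost its insulin call without insulin replicate 1 or 3 or vehicle replicate 3 or 4 (adjusted p = 0.0735 to 0.265). Its IGF-1 call there went without IGF-1 replicate 3 or 4 or vehicle replicate 3 or 4 (adjusted p = 0.0541 to 0.115). Sars2 lost its insulin call without insulin replicate 1, 2 or 3 or vehicle replicate 4 (adjusted p = 0.0619 to 0.0754), and Qars without insulin replicate 3 (adjusted p = 0.0691). Other settings also ended some of these calls. Under DESeq2, library size alone, RLE size factors, a mean CPM floor, no filter on low counts and a fit to the compared groups alone, Cars2 for insulin in IRflox missed the threshold each time (adjusted p = 0.0588 to 0.082), as did Sars for IGF-1 in IRKO (adjusted p = 0.0564 to 0.129). Qars for insulin in IRflox missed it under all of these but DESeq2 (adjusted p = 0.0533 to 0.108). For insulin in IRKO, Cars2 missed it with no filter (adjusted p = 0.0587) and with the compared groups alone (adjusted p = 0.0638), and Qars (adjusted p = 0.0753) and Sars2 (adjusted p = 0.0569) with no filter. Aars for IGF-1 in IRflox missed it with the CPM floor (adjusted p = 0.0724). Other calls were gained when 1 library was left out, among them these, in IRflox cells unless stated. Sars2 passed for insulin without insulin replicate 3 or vehicle replicate 1 or 2 (adjusted p = 0.029 to 0.0477). Without vehicle replicate 2, Sars2 and Tars2 passed for IGF-1 (adjusted p = 0.0363 and 0.041) and Wars2 for insulin (adjusted p = 0.0319). Without vehicle replicate 3, Sars passed for both ligands (adjusted p = 0.0246 and 0.0245). Falls were gained as well. Fars2 passed for insulin without insulin replicate 1 or 2 (adjusted p = 0.0451 and 0.0145), and Iars2 without insulin replicate 4 (adjusted p = 0.0373). For insulin in IRKO cells Fars2 passed without insulin replicate 1 or vehicle replicate 2 (adjusted p = 0.0306 and 0.0383). The direction of each of these changes stayed the same.

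Set beside their mitochondrial counterparts, the cytosolic genes were split, with the larger change in some pairings and the smaller change in others. The cytosolic member had the larger log2 change in 10 of 17 pairings for insulin in IRflox and in 9 of 17 in each of the other ligand comparisons. The median difference, cytosolic minus mitochondrial, was 0.06 for insulin and 0.10 for IGF-1 in IRflox, and 0.15 and 0.16 in IRKO. Fars2 (with Farsa and Farsb) and Eprs (with Ears2 and Pars2) enter the pairings more than once. The widest gap under insulin in IRflox cells was that of Farsb at 0.76 and Fars2 at -0.20. Eprs at 0.36 and Pars2 at -0.52, Iars at 0.61 and Iars2 at -0.08, and Vars at 0.45 and Vars2 at -0.12, differed in the same direction. In other pairs the mitochondrial gene changed more: Nars2 at 0.61 beside Nars at 0.18, Mars2 at 0.64 beside Mars1 at 0.19, Ears2 at 0.79 beside Eprs at 0.36, and Yars2 at 0.70 beside Yars at 0.45. Rars and Rars2 changed by 0.40 and 0.42. These gaps between genes were not tested.

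Insulin and IGF-1 were compared directly at the same dose and time. Only 1 synthetase gene was called, in IRKO cells, a share (2.78%) near that of all genes (2.67%). In IRflox cells 0 of 36 members passed edgeR's test between the ligands, where 2.59% of all genes did. At an unadjusted p under 0.05 there were 2 members, where 13.7% of all genes met that cut, and DESeq2 called 0. The differences, insulin against IGF-1, ran from -0.15 to 0.12 on the log2 scale. In IRKO cells 1 of 36 passed, Iars, which was lower with insulin than with IGF-1, with a log2 difference of -0.17 ± 0.05 (SE, adjusted p = 0.0254), where 2.67% of all genes passed. This call was lost without IRKO IGF-1 replicate 2 or 4 or IRKO insulin replicate 1, 2 or 3 (adjusted p = 0.0559 to 0.105). With DESeq2 Mars2 was called as well, at -0.24 (adjusted p = 0.0433). For the other members these differences lay between -0.24 and 0.14.

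Between genotypes 2 synthetase genes were called, both under insulin, a share (5.56%) below that of all genes (10.5%). Under vehicle 0 of 36 members passed edgeR's test, against 7.86% of all genes, and DESeq2 called 0. At an unadjusted p under 0.05 there were 6 members, where 20.7% of all genes met that cut. Their differences, IRKO against IRflox, ran from -0.27 to 0.22 on the log2 scale. Under IGF-1 0 of 36 passed, against 6.76% of all genes, and DESeq2 called 1, Dars at -0.13 (adjusted p = 0.0451). An unadjusted p under 0.05 was found for 8 members there, and for 19.5% of all genes. Under insulin 2 of 36 passed, against 10.5% of all genes, and both were lower in IRKO cells, while DESeq2 called 3. Iars was at 142 ± 9.55 CPM in IRflox and 128 ± 3.16 CPM in IRKO cells (SD, n = 4), with a log2 difference of -0.14 ± 0.05 (SE, adjusted p = 0.0342) and overlapping ranges. Gars was at 112 ± 2.43 CPM and 101 ± 5.38 CPM, with a log2 difference of -0.14 ± 0.04 (SE, adjusted p = 0.0301) and no overlap. Iars lost the call without IRflox insulin replicate 1, 3 or 4 or IRKO insulin replicate 1, 2 or 3 (adjusted p = 0.0555 to 0.187), and Gars without IRflox insulin replicate 1, 2 or 3 or IRKO insulin replicate 2 or 4 (adjusted p = 0.0502 to 0.151).

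No member passed edgeR's interaction test for a response that differs between genotypes. For insulin 0 of 36 were called, with 2 at an unadjusted p under 0.05, where 5.37% of all genes met that cut. For IGF-1 0 of 36 were called, with 3 at that cut, against 5.27% of all genes. Called genes were 0.00% of all genes in both interactions, and DESeq2 called 0 members in either. The cytosolic members differed between genotypes in their insulin response by -0.14 to 0.08 on the log2 scale, and the mitochondrial ones by -0.17 to 0.40. Iars had the lowest cytosolic value, at -0.14 ± 0.07 (SE, adjusted p = 0.893).

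Genes that work beside the synthetases were examined as lists. Where 4 values follow a gene, they are its log2 fold changes against vehicle for insulin and IGF-1 in IRflox and then for insulin and IGF-1 in IRKO, and the verbs rose and fell are used only for calls by edgeR. The scaffold proteins of the multisynthetase complex all rose, 3 of 3 in each of the 4 ligand comparisons. Eef1e1, which encodes a scaffold protein also known as AIMP3, changed by 1.04, 1.15, 0.85 and 1.05. Aimp2 changed by 0.68, 0.72, 0.59 and 0.63 and Aimp1 by 0.27, 0.38, 0.21 and 0.25, and Aimp2 shares 29.4% of its exon length with Eif2ak1, which makes its level uncertain. Among genes related to synthetases or to proofreading, 4 of 7 tested rose under insulin in IRflox, among them Tarsl2, a second cytosolic threonine enzyme, with 0.78, 0.82, 0.77 and 0.85. Prorsd1 followed with 0.54, 0.52, 0.34 and 0.37. Of 5 genes that finish charging in mitochondria, Qrsl1, a subunit of the amidotransferase that makes glutaminyl-tRNA, rose with 0.51, 0.51, 0.40 and 0.29, and the other 4 were not called in any of the comparisons with vehicle.

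Elongation factors, which carry charged tRNA to the ribosome or act after it, rose as well. Of 5 cytosolic ones 4 rose under insulin in IRflox, with Eef1g at 0.48, 0.55, 0.44 and 0.51 and Eef1b2 at 0.26, 0.39, 0.30 and 0.35, both parts of the exchange factor for eEF1A. Of 4 mitochondrial ones 3 rose, with Tufm, the mitochondrial carrier of charged tRNA, at 0.40, 0.33, 0.33 and 0.39, and Tsfm, its exchange factor, at 0.50, 0.61, 0.54 and 0.60. Among 15 tested genes of tRNA processing and export 10 rose and 0 fell. Pop5 and Pop1, subunits of the RNase that trims the 5′ end of tRNA, changed by 0.88, 0.93, 0.71 and 0.77 and 0.57, 0.64, 0.62 and 0.70. Elac2, which trims the 3′ end, changed by 0.44, 0.57, 0.60 and 0.67, and Tsen15, a subunit of the splicing endonuclease, by 0.53, 0.63, 0.62 and 0.56.

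RNA polymerase III, which transcribes tRNA genes, was mixed, with 10 of 21 genes of the enzyme and its factors up and 4 down under insulin in IRflox. Maf1, its repressor, fell in each comparison, at -0.74, -0.88, -0.67 and -0.81. Polr3gl, a subunit variant, fell too, at -0.46, -0.47, -0.44 and -0.40. Gtf3c6, a subunit of the initiation factor TFIIIC, rose, at 0.40, 0.37, 0.25 and 0.35. In the same order of comparisons the list counts were 10 up and 4 down, 10 and 4, 9 and 5, and 9 and 6.

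The list of the amino acid stress kinase GCN2 and ATF4 had 15 of 26 tested genes up and 5 down under insulin in IRflox, with a median of 0.23. Atf4 itself rose, with 0.42, 0.52, 0.41 and 0.56. Psat1 and Phgdh, enzymes of serine synthesis, rose by 0.83, 0.84, 0.75 and 0.71 and 0.45, 0.43, 0.54 and 0.44, and Asns, asparagine synthetase, by 0.30, 0.36, 0.24 and 0.32. Ppp1r15a, the stress-induced phosphatase subunit, fell with -0.67, -0.68, -0.68 and -0.63. Of 8 amino acid carriers linked to ATF4, 4 rose and 3 fell. Slc7a1 (cationic amino acids) and Slc7a5 (large neutral amino acids) rose with 0.83, 0.88, 0.60 and 0.80 and 0.58, 0.68, 0.65 and 0.79. Slc38a2, the adaptive neutral amino acid carrier, fell with -0.24, -0.32, -0.30 and -0.34. Read against the 24.3% of all genes that rose in this comparison and the 21.4% that fell, these are counts of small lists, and their difference from other genes was not tested.

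**Figure D4:**
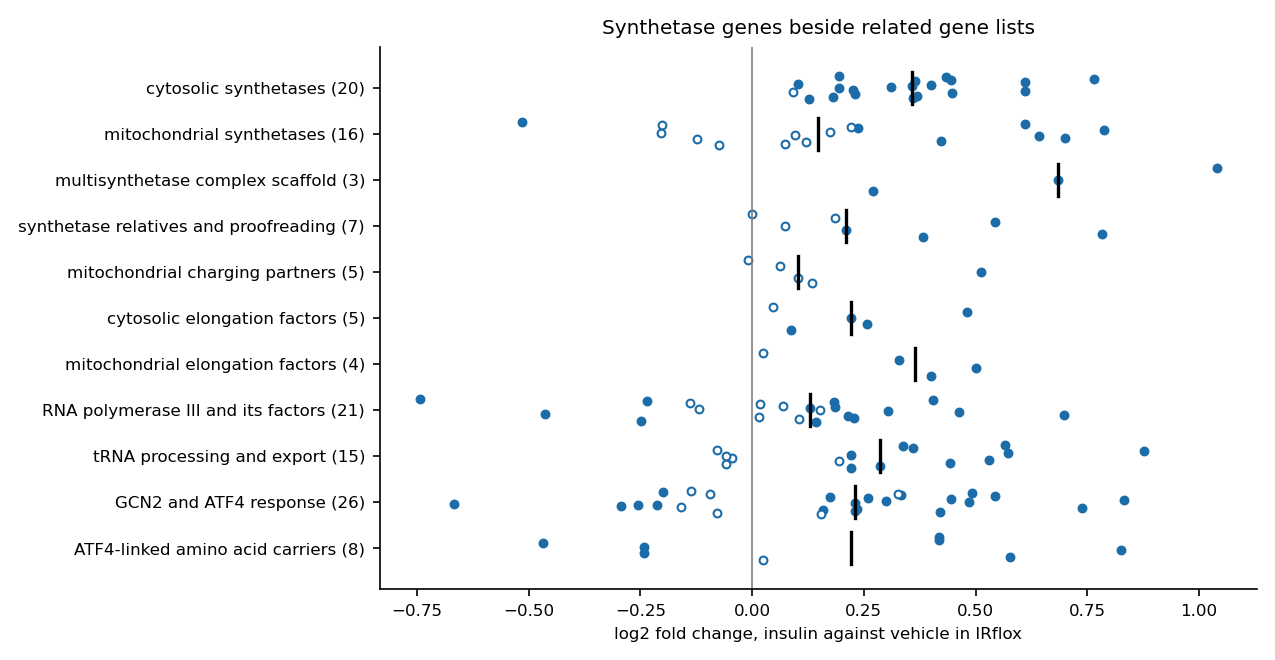
Log2 fold change of insulin against vehicle in IRflox cells for each gene tested in the synthetase groups and 9 related lists, with the number of genes in brackets, filled points where the adjusted p was under 0.05, and a black line at the median. The cytosolic synthetases lie to the right of 0 with a median of 0.36, and the polymerase III, GCN2 and ATF4, and carrier lists spread to both sides.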

How the data were processed

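RNA was measured by poly-A sequencing without strand information in 24 mouse astrocyte libraries, per the labels' protocols. The authors' deposited values are raw read counts per gene with no normalization. STAR 2.7.7a, edgeR, DESeq2, R 4.0.4 and mm10 appear in the submitters' processing notes. For the program that counted reads and its annotation, the sources used here give no name. In each file 3 closing lines without a gene were dropped. Where genes overlap on opposite strands, their reads cannot be separated without strand information. Where they overlap on the same strand, strand information would not separate them either.

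With edgeR 4.0.16 in R 4.3.3, genes with low counts were filtered (minimum count 10, minimum total 15), which kept 15599, and TMM scaling was applied (0.983 to 1.018). All 24 libraries entered 1 quasi-likelihood fit with a mean for each group, and 11 comparisons were drawn from it, each adjusted by Benjamini-Hochberg over the genes tested and called under 0.05. The coefficient of variation between libraries was 4.92%. CPM were computed from the counts with TMM sizes. A ± after a fold change is the SE of the fit, and after a level it is the SD. Replicate pairs differed by more than sampling noise (chi-square per gene 2.17 to 6.86). The procedure was tested on simulated data with known changes in a small share of genes in 1 group. Far more genes were called in the ligand comparisons, so the simulation does not tell how the procedure performs at that scale. Alternatives were DESeq2 1.42.0, other scalings and filters, a replicate block, fits to the compared groups alone, and leaving out each library. Coordinates and exon lengths came from GENCODE M21 (GRCm38), and promoter windows from RefSeq.

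The members and lists were chosen with earlier results of these data known. Values in every library are given for Gars and Kars, for the 4 members of each compartment with the largest rises and the 2 with the largest falls among those called under insulin in IRflox, and for members called in comparisons without vehicle. From other lists, up to 4 genes with the lowest p under insulin in IRflox are named, with Atf4 and Asns. The interferon list gave 5 of 13 up and 2 down in that comparison. The values of 1 mitochondrial member and 1 gene of another list are not reported here by name.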

Additional observations from a re-analysis of the deposited data

Results flagged for a closer look

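In 2 of 66 combinations of a named synthetase gene and a group, 1 library stood apart from the other 3 by more than Dixon's critical ratio, and chance alone flags about 1 group in 20. Yars2 reached 29.5 CPM in IRflox IGF-1 replicate 4, where the other libraries of that group gave 25.9, 25.3 and 25.5 CPM. Its log2 change for IGF-1 in IRflox cells was 0.85 with that library and 0.78 without it (adjusted p = 5.59e-11). Ears2 reached 16.8 CPM in the same library, against 13.5, 13.4 and 13.6 CPM in the others. Its log2 change was 0.72 with that library and 0.62 without it (adjusted p = 5.33e-07).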

How the results depend on the processing

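Counts of cytosolic members that rose stayed at 18 to 20 under DESeq2, other scalings and filters and fits to the compared groups alone, and at 17 to 20 when 1 library was left out. Mitochondrial members that rose numbered 7 under each such setting for IGF-1 in IRflox and 9 for IGF-1 in IRKO, 5 to 6 for insulin in IRflox and 7 to 9 for insulin in IRKO, and with 1 library left out 6 to 9, 8 to 9, 5 to 7 and 7 to 9. No member reversed its direction in a called comparison. Libraries of the same replicate number showed no shared deviation (correlation of deviations -0.116 to 0.0991, median 0.00985, over 60 pairs). This does not tell whether they were prepared together. The fit with the replicate number as a block left each count of called members as it was, for example 19 cytosolic members up for insulin in IRflox. Mitochondrial members that fell under insulin in IRflox numbered 1, against 2 with library size alone, 2 with RLE size factors and 3 with a mean CPM floor of 1, the added calls being Fars2 and, with the floor, Iars2. For insulin against IGF-1 in IRKO the count was 1, and 2 with DESeq2. For IRKO against IRflox under IGF-1 it was 0, and 1 with DESeq2 and 1 in the fit of only the groups compared. Under insulin it was 2, and 0 with library size alone. The cause of these shifts was not tested. With 1 library left out, mitochondrial members that fell numbered 1 to 3 for IGF-1 in IRflox (4 with all libraries), 1 to 3 for insulin in IRflox and 1 to 2 for insulin in IRKO. The called members numbered 0 to 1 for insulin against IGF-1 in IRKO, 0 to 1 for IRKO against IRflox under IGF-1 and 0 to 4 under insulin. The values of Iars and Gars in comparisons without vehicle were put through the same alternatives after seeing the data.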
